A study of Mus musculus with 8 samples.

Results

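A set of 10 genes, the members, represents the glutathione S-transferase families in these data: Gsta1 and Gsta4 of the alpha class, Gstm1 and Gstm3 of the mu class, Gstp1 of the pi class, Gsto1 of the omega class, Gstk1 of the kappa class, and the membrane-bound Mgst1, Mgst2 and Mgst3. The members were listed by name and found through their Ensembl identifiers and their exon positions. All 10 had a value in all 8 samples, out of 13997 genes with a value in the series. Intestinal crypt organoids, which are epithelial cultures grown from isolated crypts in Matrigel with IntestiCult OGM medium, were compared between 4 WT samples and 4 MG53-TG samples. MG53-TG mice overexpress MG53 (also called TRIM72, a tripartite motif E3 ligase and membrane repair protein) in the whole body, and WT samples came from littermates. The genotype labels read wt and mg53-tg and name no further allele, treatment, age or sex. The study's text also describes crypt organoids from MG53;Lgr5 and Lgr5 mice, which carry an Lgr5 reporter allele, and whether these samples carry it cannot be told from the labels. The promoter that drives the transgene and the number of mice behind each group were not given in the sources used here. Nothing in the labels says that the samples of a group came from separate mice or cultures, so p-values measure the spread between these samples only.

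Glutathione S-transferases join the tripeptide glutathione to electrophilic compounds, such as products of lipid peroxidation and many drugs, which makes them more soluble and easier to export. The soluble alpha, mu, pi and omega classes share a fold with a glutathione site and a substrate site. The microsomal enzymes belong to an unrelated membrane protein family (MAPEG) that also makes leukotrienes and prostaglandins. In the small intestine these enzymes are known as part of the detoxifying equipment of the absorptive epithelium, and several of their genes are known targets of the transcription factor NRF2 and of the nuclear receptors CAR and PXR.

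In the MG53-TG organoids, 9 of the 10 members were higher than in WT and none was lower, where a call is a limma adjusted p not above 0.05. Among the 10909 genes tested, 44.5% were called, 15.5% as higher and 29.0% as lower in MG53-TG. For 8 members every MG53-TG sample lay above every WT sample, which 15.7% of all genes did. The median difference of the members was 1.44 on the log2(FPKM + 1) scale, and that of all genes tested was -0.17. FPKM counts fragments scaled to the length of the transcript and to the number of mapped fragments, and a difference on the log2(FPKM + 1) scale understates the change of genes with low values. These are bulk samples, in which more cells of a type and more RNA per cell cannot be told apart.

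Trim72, the gene of MG53, was listed at 0 or had no entry in the 4 WT samples, whereas MG53-TG samples 1 to 4 held 16.4, 27.4, 31.9 and 36.5 FPKM of it. Epithelial markers were present in both groups, with a summed level of 2026 to 2365 FPKM in WT and 1539 to 2044 FPKM in MG53-TG, while the 3 of 7 immune markers and the 1 of 5 endothelial markers that had a value summed to at most 0.296 FPKM in any sample, and the others had no value. All 12 enterocyte markers were higher in MG53-TG, with a summed level of 949.1 to 1132 FPKM in WT and 11850 to 13000 FPKM in MG53-TG. The summed level of 7 crypt stem cell markers was 515.7 to 687.9 FPKM in WT and 58.8 to 302.3 FPKM in MG53-TG, and that of 7 proliferation markers was 418.7 to 461.7 FPKM in WT and 121.3 to 324.5 FPKM in MG53-TG. The part of these shifts in the results on the members was not tested.

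Several members have close copies in the genome, which bears on whose reads a value holds. The coding sequence of Gsta1 was 99.7% identical to that of the neighbouring gene Gm3776, with a shared run of 565 of 669 bases, 97.6% identical to Gsta2 and 97.0% identical to Gm10639. The coding sequence of Gstp1 was 98.1% identical to that of Gstp2. Gstm1 and Gstm3 were 80.5% identical to each other, Gstm3 was 85.1% identical to Gstm2, and each of Gsta4, Gsto1, Gstk1 and the Mgst genes was at most 68.7% identical to any other gene compared. Shown to let the likeness be seen, the stretches here are 60 coding bases within one exon, chosen as those with the most differences between a member and its nearest copy, and capitals mark where the copy differs from the member. The sequences are from GENCODE transcripts on GRCm38. Those of Gsta1 (chr9:78232240-78232299, plus strand) and Gm3776 (chr9:78258712-78258771, plus strand) are coding bases 1 to 60 and differ at 1 base. Those of Gstp1 (chr19:4036694-4036753, minus strand) and Gstp2 (chr19:4040988-4041047, minus strand) are coding bases 271 to 330 and differ at 5 bases.
Gsta1: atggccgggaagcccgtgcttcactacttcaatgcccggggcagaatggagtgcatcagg
Gm3776: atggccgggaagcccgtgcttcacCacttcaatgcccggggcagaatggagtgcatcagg
Gstp1: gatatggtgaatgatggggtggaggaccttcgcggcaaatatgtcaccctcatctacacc
Gstp2: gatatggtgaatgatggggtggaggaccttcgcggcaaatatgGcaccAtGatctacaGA

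The identifiers in the deposited tables did not follow these copies in every case. For 7 members, all rows named for the gene matched its own exons, and for Gstm3 this held for 2 of 4 rows, the others lying on the opposite strand in MG53-TG sample 2 and being left out. For Gsta1, no row carried its identifier, and its start and end rows were named for Gm10639. For Gstp1, the 4 start rows that matched its exons were named for Gstp2, and the 2 rows named for Gstp1 lay on the opposite strand. The values of Gsta1 and Gstp1 given here are therefore those of the rows at their own exons, and how fragments were split between the copies is not known.

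Both alpha class members were higher in MG53-TG. Gsta1 (ENSMUSG00000074183, chr9:78230656-78242684, plus strand), a main alpha enzyme of the mouse with broad substrates, was at 261, 272, 289 and 269 FPKM in WT and at 740, 456, 2606 and 1115 FPKM in MG53-TG. The groups did not overlap, and MG53-TG sample 3 lay far above the other MG53-TG samples. Its mean was 273 ± 11.9 FPKM in WT and 1229 ± 957 FPKM in MG53-TG (SD, n = 4 each), a ratio of 4.51. The difference on the log2 scale was 1.86 ± 0.44 (SE), with a limma adjusted p of 0.00950. Without MG53-TG sample 3 the MG53-TG mean was 770 ± 331 FPKM (SD, n = 3), the ratio 2.82 and the log2 difference 1.40, still past the threshold. Its end row gave lower levels, at 128 to 154 FPKM in WT and 287 to 1391 FPKM in MG53-TG, with the same order of samples within MG53-TG. The sum of Gsta1, Gm3776, Gm10639 and Gsta2 was 331 ± 15.6 FPKM in WT and 1610 ± 994 FPKM in MG53-TG (SD, n = 4 each), and ranged from 849 FPKM in MG53-TG sample 2 to 3040 FPKM in sample 3.

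Gsta4 (ENSMUSG00000032348, chr9:78182774-78209349, plus strand), which conjugates hydroxynonenal and other products of lipid peroxidation, was at 221, 215, 214 and 208 FPKM in WT and at 608, 662, 740 and 742 FPKM in MG53-TG. Its groups were tight and far apart. The means were 215 ± 5.33 FPKM in WT and 688 ± 65.0 FPKM in MG53-TG (SD, n = 4 each), a ratio of 3.20, with a log2 difference of 1.67 ± 0.08 (SE) and a limma adjusted p of 2.76e-06, the lowest among the members. The value of Gsta4 comes from its end row, since no start row was listed for it.

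Both mu class members were higher in MG53-TG by a similar ratio. Gstm1 (ENSMUSG00000058135, chr3:108012255-108017973, minus strand), a major mu enzyme of the mouse liver and gut, was at 169, 184, 201 and 194 FPKM in WT and at 517, 497, 804 and 835 FPKM in MG53-TG. Gstm3 (ENSMUSG00000004038, chr3:107963696-107969283, minus strand), which lies in the same gene cluster, was at 162, 188, 212 and 159 FPKM in WT and at 492, 503, 840 and 1028 FPKM in MG53-TG. In both genes the groups did not overlap, and MG53-TG samples 3 and 4 lay above samples 1 and 2. The log2 difference was 1.78 ± 0.18 (SE, limma adjusted p = 0.000119) for Gstm1 and 1.92 ± 0.24 (SE, limma adjusted p = 0.000400) for Gstm3, and the ratios of the means were 3.54 and 3.97.

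Gstp1 was the one member that did not pass the test. Gstp1 (ENSMUSG00000060803, chr19:4035407-4037985, minus strand), the pi class enzyme that is also known to bind the kinase JNK, was at 159, 171, 290 and 122 FPKM in WT and at 166, 188, 171 and 160 FPKM in MG53-TG. The MG53-TG samples all fell within the WT range, and WT sample 3 was the highest of all. The means were 186 ± 72.6 and 171 ± 12.2 FPKM (SD, n = 4 each), and the log2 difference was -0.04 ± 0.23 (SE, limma adjusted p = 0.895, two-sided exact permutation p = 0.914). The sign of this difference turned under median-of-ratios scaling and without WT sample 3, at 0.15 and 0.20. The sum of Gstp1 and its copy Gstp2 was 350 ± 145 FPKM in WT and 317 ± 22.2 FPKM in MG53-TG (SD, n = 4 each).

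The omega class member rose less. Gsto1 (ENSMUSG00000025068, chr19:47854970-47864790, plus strand), which has thioltransferase and dehydroascorbate reductase activity, was at 78.8, 88.8, 72.1 and 68.9 FPKM in WT and at 156, 155, 134 and 131 FPKM in MG53-TG. The groups did not overlap. In its end row, which gave these values, the higher MG53-TG values were in samples 1 and 2, unlike in the mu members. The ratio of the means was 1.87 and the log2 difference 0.90 ± 0.11 (SE, limma adjusted p = 0.000301). Its main start, at chr19:47854970-47855122, was at 108, 99.2, 135 and 113 FPKM in MG53-TG, with samples 3 and 4 the higher.

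Gstk1 had the lowest level and the least secure call. Gstk1 (ENSMUSG00000029864, chr6:42245935-42250447, plus strand), the kappa class enzyme of mitochondria and peroxisomes, was at 0.810, 7.05, 2.37 and 2.31 FPKM in WT and at 12.9, 2.83, 21.5 and 13.3 FPKM in MG53-TG. MG53-TG sample 2 lay within the WT range, so the groups overlapped. The log2 difference was 1.68 ± 0.59 (SE) with a limma adjusted p of 0.0453 and a two-sided exact permutation p of 0.0571. The adjusted p was 0.114 without WT sample 1, 0.0914 without WT sample 3 and 0.0958 without WT sample 4. It was 0.0909 without MG53-TG sample 1, 0.118 without MG53-TG sample 3 and 0.0998 without MG53-TG sample 4.

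The membrane-bound members all rose. Mgst1 (ENSMUSG00000008540, chr6:138140316-138156755, plus strand), found in the endoplasmic reticulum and the outer mitochondrial membrane, was at 167, 176, 188 and 162 FPKM in WT and at 309, 304, 564 and 479 FPKM in MG53-TG. Mgst2 (ENSMUSG00000074604, chr3:51660360-51682677, plus strand), which can also make leukotriene C, was at 28.9, 31.0, 32.4 and 18.4 FPKM in WT and at 53.2, 55.5, 51.8 and 65.2 FPKM in MG53-TG. Mgst3 (ENSMUSG00000026688, chr1:167371966-167393841, minus strand), which has glutathione peroxidase activity toward lipid hydroperoxides, was at 92.3, 95.5, 104 and 91.9 FPKM in WT and at 162, 168, 201 and 206 FPKM in MG53-TG. None of the 3 genes had overlapping groups, and samples 3 and 4 were again the higher MG53-TG samples in Mgst1 and Mgst3 but not in Mgst2. The log2 differences were 1.20 ± 0.20, 1.03 ± 0.18 and 0.93 ± 0.10 (SE) in that order, with limma adjusted p of 0.00169, 0.00198 and 0.000190. The 8 members without overlap had a two-sided exact permutation p of 0.0286, the smallest that 4 against 4 samples allow.

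**Figure D1:**
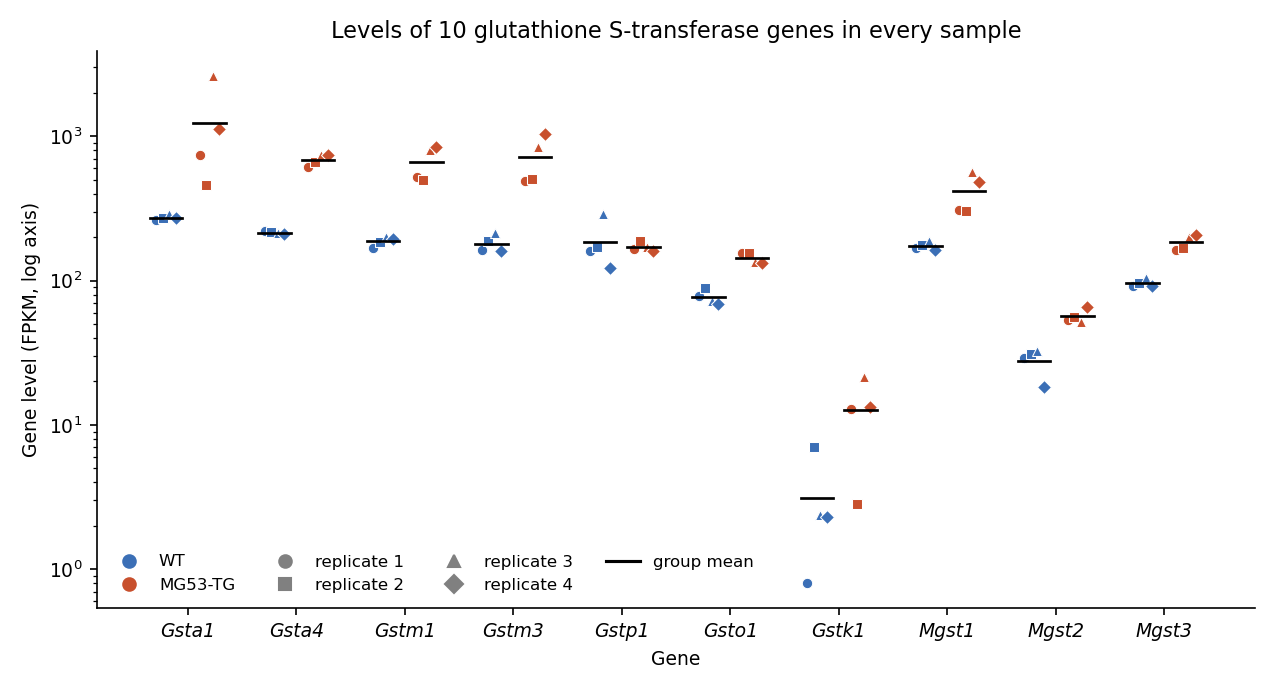
Level of each of the 10 members in FPKM on a log axis, with WT in blue, MG53-TG in orange, one marker shape per replicate number and black lines for the group means (n = 4 each). The groups are apart in 8 members, overlap in Gstk1 through MG53-TG sample 2 at 2.83 FPKM, and share a range in Gstp1.

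The order of the levels changed between the groups. FPKM is per length of transcript, so levels of different genes can be set side by side. In WT the order by mean level was Gsta1, Gsta4, Gstm1, Gstp1, Gstm3, Mgst1, Mgst3, Gsto1, Mgst2 and Gstk1. The place of Gsta1 rests on its start row, since its end row had a WT mean of 141 FPKM, below that of Mgst1, and the place of Gstp1 rests on WT sample 3, without which its WT mean was 151 FPKM. The ranges of Gstm1, Gstp1, Gstm3 and Mgst1 overlapped with their neighbours in this order, with means of 173 to 187 FPKM, and the other neighbours were apart. In MG53-TG the order was Gsta1, Gstm3, Gsta4, Gstm1, Mgst1, Mgst3, Gstp1, Gsto1, Mgst2 and Gstk1. The place of Gsta1 again rests on its start row, since its end row had an MG53-TG mean of 659 FPKM, below those of Gstm3, Gsta4 and Gstm1. In the order by mean level in MG53-TG, the first 5 members overlapped with their neighbours, as did Mgst3 and Gstp1. By these means Gstp1 stood at rank 4 in WT, or at rank 6 without WT sample 3, and at rank 7 in MG53-TG.

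Summed over the 10 members, the level was 1418 ± 137 FPKM in WT and 4279 ± 1470 FPKM in MG53-TG (SD, n = 4 each), and without Gsta1 it was 1140 ± 126 and 3050 ± 631 FPKM. In MG53-TG samples 1 to 4 the sum was 3216, 2991, 6133 and 4775 FPKM. Gsta1 made up 18 to 20.8% of the sum in WT and 15.2 to 42.5% in MG53-TG, with the highest share in sample 3. The share of Gstp1 was 9.43 to 18.1% in WT and 2.79 to 6.30% in MG53-TG.

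In 6 of the 10 members the coefficient of variation was larger among the MG53-TG samples than among the WT samples. The coefficient of variation of Gsta1 was 4.35% in WT and 77.9% in MG53-TG, that of Gstm1 was 7.47 and 27.3%, and that of Mgst1 was 6.49 and 31.2%. Gstp1 went the other way, at 39.1% in WT and 7.11% in MG53-TG. Much of its WT spread came from WT sample 3, without which the WT values were 151 ± 25.4 FPKM (SD, n = 3). In 7 members, Gsta1, Gsta4, Gstm1, Gstm3, Gstk1, Mgst1 and Mgst3, MG53-TG samples 3 and 4 were both above samples 1 and 2. The mean of samples 3 and 4 was 3.11 times that of samples 1 and 2 for Gsta1, 1.88 times for Gstm3 and 1.70 times for Mgst1. It was 1.62 times for Gstm1, 1.17 times for Gsta4 and 0.852 times for Gsto1. The value of Gsto1 comes from its end row, whereas its main start was higher in samples 3 and 4. The summed stem cell markers were 286.7 and 302.3 FPKM in MG53-TG samples 1 and 2 and 92.67 and 58.8 FPKM in samples 3 and 4, and the summed proliferation markers were 319.1, 324.5, 166.2 and 121.3 FPKM in samples 1 to 4. The enterocyte sum was 12180, 11850, 12950 and 13000 FPKM in the same order. The goblet marker sum was 213.4, 291.2, 471.2 and 557.8 FPKM and the Paneth marker sum 375.2, 444.5, 287.6 and 252.2 FPKM, all below the WT ranges of 779.4 to 891.2 and 1104 to 1494 FPKM. The labels give no batch that would set samples 3 and 4 apart, and the part of these markers in the spread of the members was not tested.

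**Figure D2:**
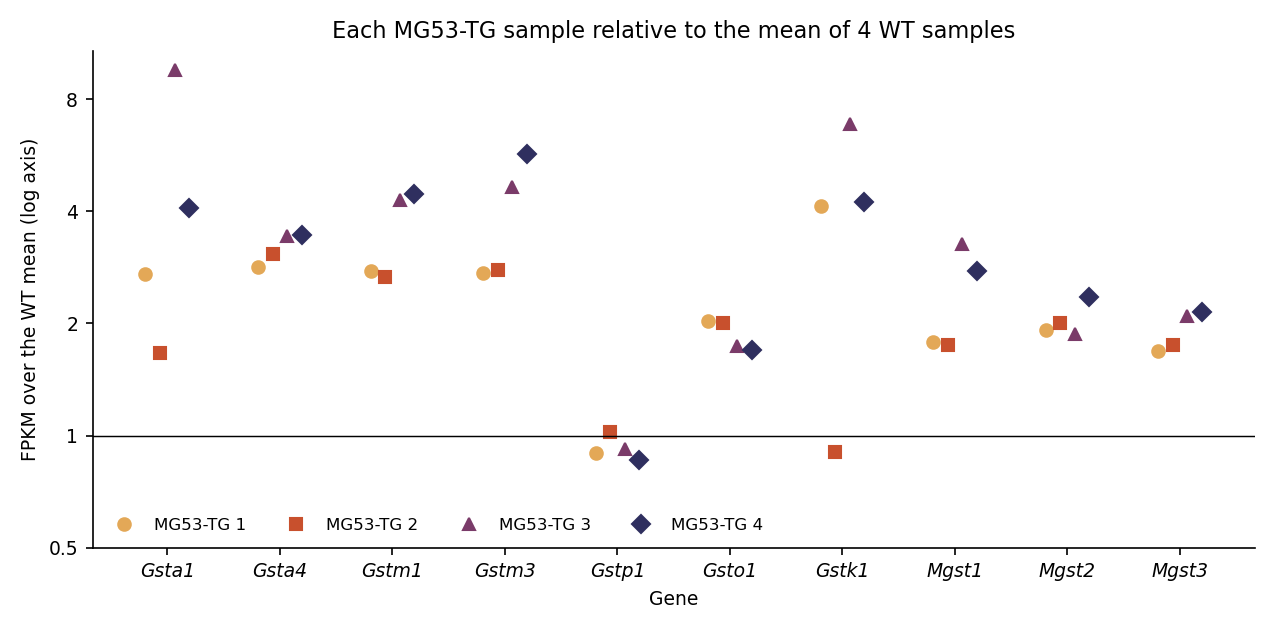
FPKM of each member in each of the 4 MG53-TG samples divided by the mean of the 4 WT samples, on a log axis with a line at 1. Samples 3 and 4 lie above samples 1 and 2 in 7 members, from 9.56 times the WT mean for Gsta1 in sample 3 down to 0.862 times for Gstp1 in sample 4.

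**Figure D3:**
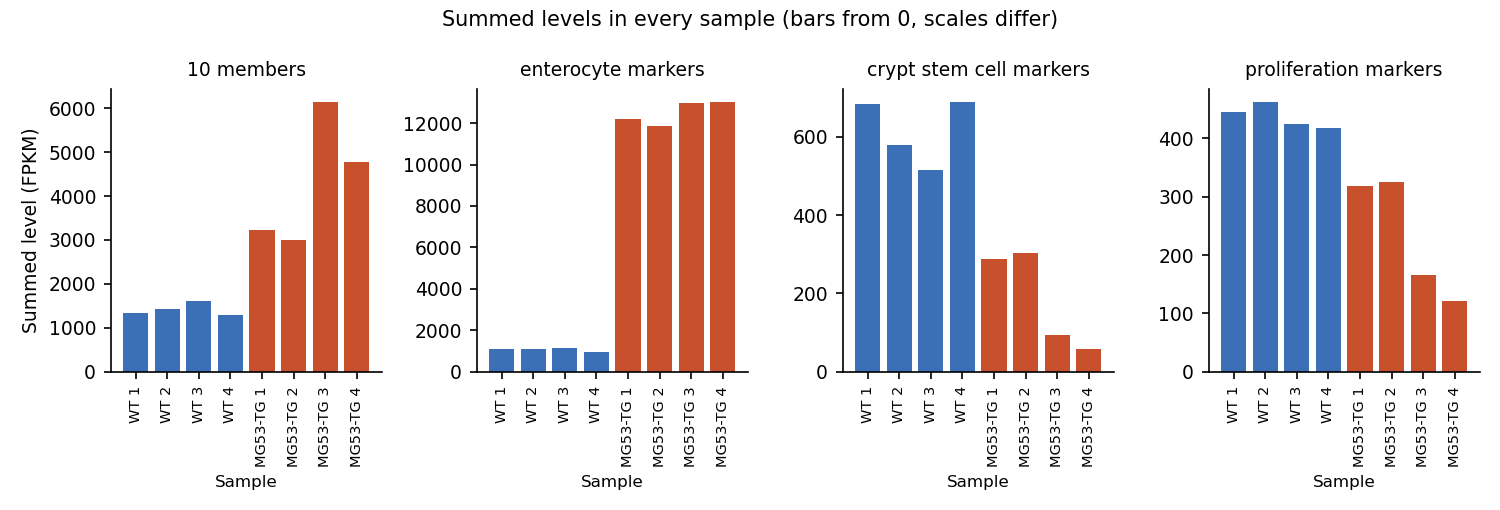
Summed FPKM of the 10 members, of 12 enterocyte markers, of 7 crypt stem cell markers and of 7 proliferation markers in every sample, as bars from 0 with a scale of its own in each panel. The members and the enterocyte markers are higher and the other lists lower in all 4 MG53-TG samples (orange) than in all 4 WT samples (blue).

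The start rows and skipped exons of the members were compared as shares within a gene, which do not use the gene's level. The 9 start rows of members with a mean share between 5% and 95% were all of Gstp1, Gsto1, Mgst1 and Mgst2. The other members had no such row, so their starts were not tested. Of the 9 rows, none passed the limma test, and none had an unadjusted p under 0.05. Among 5705 start rows of all genes, 1.12% were called and 11.4% had such an unadjusted p. Neither of 2 skipped exons of members was called, where 0.820% of 1586 exons of all genes were, and neither had an unadjusted p under 0.05, as 10.6% of all exons did. The exon of Mgst1 at chr6:138147659-138147815, was included at 95.2 ± 0.660% in WT and 94.5 ± 0.702% in MG53-TG (SD, n = 4 each), and that of Mgst2 at chr3:51677565-51677635 at 90.5 ± 4.85% and 90.8 ± 2.46%. The difference was within the spread between replicates for Mgst2 and just over 1 SD of either group for Mgst1, where the two-sided exact permutation p was 0.200 (n = 4 each).

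Single samples stood apart in their use of starts. In Gstp1, the short start at chr19:4036279-4036382 carried 16.0 and 15.2% of the gene in WT samples 1 and 2, had no entry in WT samples 3 and 4, and carried 15.6 to 22.1% in MG53-TG (limma adjusted p = 0.455, two-sided exact permutation p = 0.0571). A start of Gstp1 at chr19:4037866-4037977, almost the same as its main start, carried 12.3 and 32.2% in WT samples 3 and 4 and at most 0.0177% elsewhere. WT samples 3 and 4 were also the samples with the highest and lowest Gstp1 level. The main start of Mgst1 carried 85.6 ± 0.478% in WT and 82.2 ± 10.9% in MG53-TG (SD, n = 4 each), where MG53-TG sample 3 was at 66.7%. A neighbouring start of Mgst1 at chr6:138140599-138140652 was at 130 FPKM in that sample and at 3.20 to 9.21 FPKM in the other MG53-TG samples. A minor start of Gstm1 at chr3:108016519-108016600 was at 8.18 to 11 FPKM in WT, had no entry in MG53-TG sample 1, and reached 0.289, 32.7 and 30.9 FPKM in the remaining MG53-TG samples in order.

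Promoter windows from RefSeq (GRCm38.p6), which run from 250 bases before to 50 bases after a start, were found for 9 of the 10 members, 11 windows in all. They were searched on both strands for TGACNNNGC, the core of the antioxidant response element that NRF2 binds, for AGGTCANAGGTCA, a direct repeat of the nuclear receptor half-site with 1 base between the copies, and for the half-site AGGTCA, which the repeat contains. The core was found in 1 window, that of the main start of Mgst1, and in 12.4% of all 32851 windows. The repeat was in no member window and in 0.0396% of all windows. The single half-site was in a window of Gstm1 and in that of Gstk1, and in 16.3% of all windows. A match is a description of the letters, and a window without one says nothing on sites elsewhere. The 100 bases before the start are shown for the Mgst1 window that holds the core (chr6:138140427-138140526, plus strand), where the capitals are the reverse complement of the match, which lies on the minus strand, and for Gsta1 (chr9:78230569-78230668, plus strand) and Gstm3 (chr3:107969175-107969274, minus strand), the members with the largest log2 differences, which hold none.
Mgst1: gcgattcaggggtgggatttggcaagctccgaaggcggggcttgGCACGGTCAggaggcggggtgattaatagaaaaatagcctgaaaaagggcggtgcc
Gsta1: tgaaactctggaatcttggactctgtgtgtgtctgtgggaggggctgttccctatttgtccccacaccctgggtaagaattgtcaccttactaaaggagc
Gstm3: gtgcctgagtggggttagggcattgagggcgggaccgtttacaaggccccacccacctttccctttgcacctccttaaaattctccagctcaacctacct

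Most calls among related genes of the same families were also of higher genes. Of 25 other glutathione S-transferase and MAPEG genes, 19 were tested, of which 10 were higher and 2 lower in MG53-TG and 7 did not pass, with a median log2 difference of 0.75. Gsta5, Gsta13 and Gstt4 had no row, and Gsto2, Hpgds and Alox5ap were below a mean of 0.5 FPKM. Gsta2, an alpha gene close to Gsta1, was at 3.89 to 8.97 FPKM in WT and 33.5 to 157 FPKM in MG53-TG, with a log2 difference of 3.44 ± 0.43 (SE, limma adjusted p = 0.000369). Gm3776, the nearest copy of Gsta1, was at 33.7 to 38.6 FPKM in WT and 175 to 318 FPKM in MG53-TG (log2 difference 2.65 ± 0.17, limma adjusted p = 9.56e-06). These 2 genes, and Gstm2 among the mu genes, had larger log2 differences than any member. Gm10639 was at 3.20 to 22.9 FPKM in WT and 12.3 to 114 FPKM in MG53-TG, with groups that overlapped. Its limma adjusted p was 0.122, but 0.0393 without MG53-TG sample 1. With the deposited identifiers it was 0.00130, where the value of Gm10639 takes in the rows at the Gsta1 exons. Gsta3, another alpha gene, was at 46.7 ± 9.58 and 81.3 ± 20.3 FPKM (SD, n = 4 each, limma adjusted p = 0.0130).

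The mu genes did not all move one way. Gstm2 was higher in MG53-TG, at 32.5 ± 4.39 FPKM in WT and 152 ± 51.6 FPKM in MG53-TG (SD, n = 4 each, limma adjusted p = 0.000182), as were Gstm7, with a log2 difference of 1.6, and Gstm6, with 1.76. Gstm6 overlapped between the groups, and its limma adjusted p of 0.0301 was 0.0781 without MG53-TG sample 3 and 0.0681 to 0.0740 without WT sample 1, 2 or 3, and 0.0698 from start rows only. Gstm5, known for expression in brain and testis, was lower, at 18.2 to 25.9 FPKM in WT and 5.24 to 13.1 FPKM in MG53-TG (log2 difference -1.13 ± 0.25, limma adjusted p = 0.00622), but with the deposited identifiers taken as they stand it was called higher, by 0.78 (limma adjusted p = 0.00279). Gstm4 varied from 0.232 to 8.12 FPKM in WT and from 0.513 to 25.4 FPKM in MG53-TG and did not pass.

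In the pi and theta classes, 1 gene of each rose. Gstp3 was at 17.3 ± 2.54 FPKM in WT and 30.4 ± 8.25 FPKM in MG53-TG (SD, n = 4 each, limma adjusted p = 0.0110), while Gstp2 was at 111 to 271 FPKM in WT and 135 to 160 FPKM in MG53-TG and did not pass. Gstt1, the theta enzyme that acts on small halogenated compounds, was at 24.9, 26.3, 28.9 and 27.0 FPKM in WT and at 72.2, 72.1, 81.5 and 76.0 FPKM in MG53-TG, with a limma adjusted p of 6.47e-06. Its MG53-TG samples were close together, unlike those of Gsta1. Gstt2, Gstt3, Gstz1 of the zeta class and Gstcd had log2 differences of 0.03, 0.22, -0.13 and -0.45 and did not pass, though Gstcd had a limma adjusted p of 0.0216 without MG53-TG sample 2. Among genes of eicosanoid synthesis, Ptges, the inducible prostaglandin E synthase, was called lower, at 1.00 to 2.22 FPKM in WT, 0.0260 FPKM in MG53-TG sample 3 and listed at 0 in the other MG53-TG samples. Ptges2 was higher by 0.45 on the log2 scale (limma adjusted p = 0.0191). Its adjusted p was 0.0552 without WT sample 1, 0.0505 without WT sample 3 and 0.0509 without MG53-TG sample 3, and from end rows only its log2 difference was 0.23 (adjusted p 0.0939). Ltc4s, the leukotriene C synthase, was at 0.249 to 1.28 FPKM in WT and 0.846 to 2.70 FPKM in MG53-TG, with groups that overlapped and a limma adjusted p of 0.0370, which was 0.0528 to 0.0946 without WT sample 1, 2 or 4 or without MG53-TG sample 1, 3 or 4, and 0.0685 with the replicate number as a block.

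**Figure D4:**
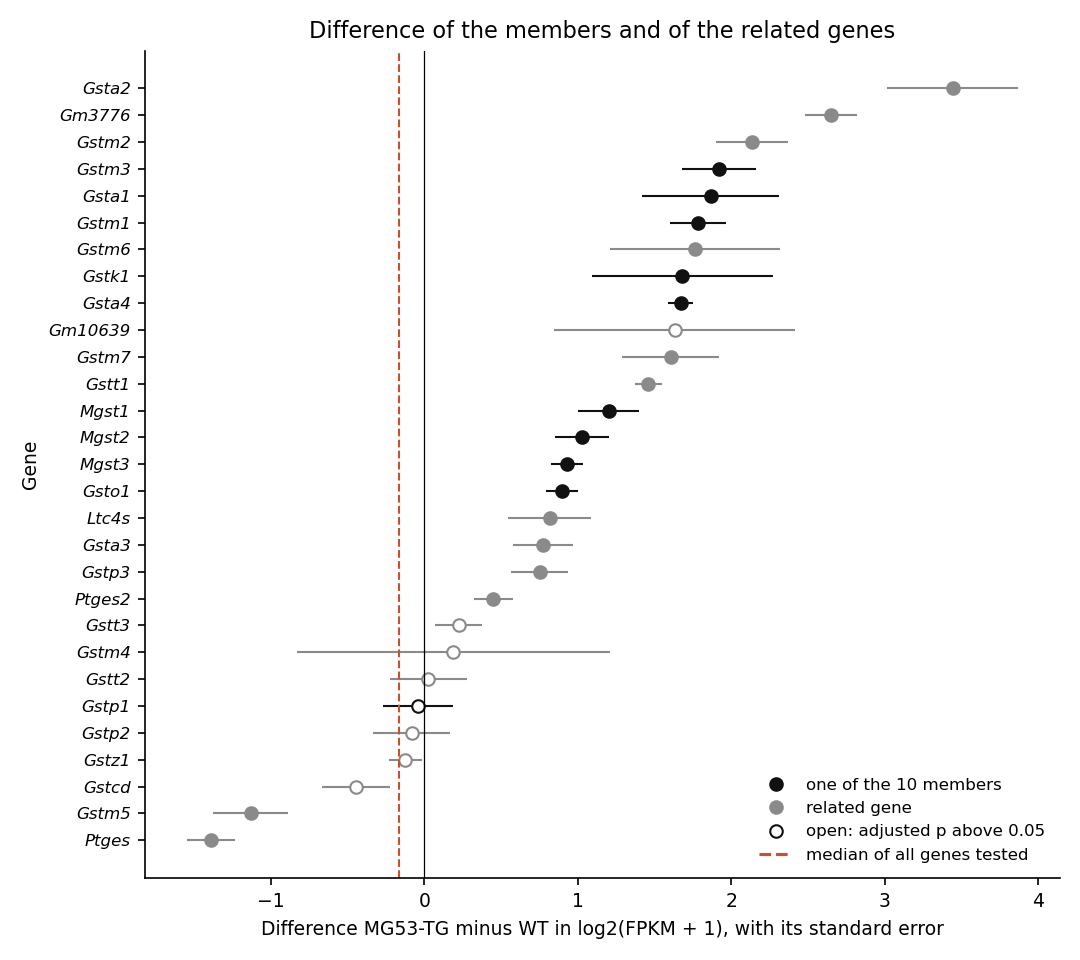
Difference between MG53-TG and WT in log2(FPKM + 1) with its standard error for the 10 members (black) and 19 related genes (grey), open where the adjusted p is above 0.05, with a dashed line at the median of all genes tested, -0.17. Gsta2 at 3.44, Gm3776 at 2.65 and Gstm2 at 2.13 lie above all members, and Gstm5 and Ptges lie lowest.

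The genes that make glutathione or break it down did not move as a block. Of 16 tested genes of glutathione synthesis and turnover, 5 were higher, 5 lower and 6 did not pass, with a median log2 difference of -0.12. Ggt1, the surface enzyme that begins the breakdown of glutathione, was at 3.13 to 4.69 FPKM in WT and at 15.6, 15.9, 85.2 and 70.3 FPKM in MG53-TG (limma adjusted p = 0.00306). Samples 3 and 4 were the high ones here too. Cndp2, a dipeptidase for cysteinylglycine, rose from 24.1 ± 4.62 to 53.7 ± 7.31 FPKM (SD, n = 4 each). Slc7a11, the cystine transporter, fell from 8.30 ± 2.23 to 2.59 ± 0.287 FPKM (SD, n = 4 each, limma adjusted p = 0.000378), and Chac1, which degrades glutathione in the cytosol, fell from 13.4 ± 2.54 to 6.0 ± 1.51 FPKM (SD, n = 4 each).

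Of 9 tested genes in the list of glutathione peroxidases and glutaredoxins, which also holds Txnip, the thioredoxin-interacting protein, 3 were higher and 2 lower, with a median of -0.04. Glrx, a glutaredoxin, was at 38.3 to 41.9 FPKM in WT and 108 to 135 FPKM in MG53-TG (limma adjusted p = 6.47e-06, but 0.472 from end rows only), and Gpx4, which reduces lipid hydroperoxides in membranes, was at 71.7 to 78.0 and 146 to 219 FPKM. Gpx1 was lower at 198 ± 11.7 FPKM in WT and 163 ± 15.2 FPKM in MG53-TG (SD, n = 4 each), with a limma adjusted p of 0.0314 that was 0.0541 to 0.0791 without any one WT sample and without MG53-TG sample 2 or 3, and 0.591 under median-of-ratios scaling. Gpx3 was at 1.11 to 1.59 FPKM in WT, at 0.349 FPKM in MG53-TG sample 3 and listed at 0 in the other MG53-TG samples. A listed 0 can be a failed estimate rather than a low level, for Gpx3 as for Ptges: Gpx2, an epithelial peroxidase named here after its values were seen, was at 369 FPKM in WT sample 1 and listed at 0 in the other 7 samples.

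Most calls in the steps after conjugation were of higher genes. Of 22 tested genes of mercapturate formation and other conjugation or carbonyl metabolism, 13 were higher and 1 was lower, with a median of 0.85. Ugt2b5, a glucuronosyltransferase, was at 0.472 to 1.20 FPKM in WT and 40.2 to 76.0 FPKM in MG53-TG (limma adjusted p = 1.81e-06), and Aldh1a1, a retinal dehydrogenase, was at 6.49 to 9.0 and 88.5 to 278 FPKM. Akr1b8, an aldo-keto reductase, fell from 22.0 ± 5.45 to 4.2 ± 1.39 FPKM (SD, n = 4 each, limma adjusted p = 0.000161). Of 11 exporters, 5 were higher and 2 lower, with a median of 0.69. Abcg2 rose from 8.60 ± 1.72 to 24.1 ± 5.59 FPKM and Abcb1a, a multidrug transporter, from 37.6 ± 3.15 to 89.8 ± 2.14 FPKM, while Abcc1, which carries glutathione conjugates, fell from 10.5 ± 0.807 to 4.75 ± 1.06 FPKM (SD, n = 4 each).

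Other known NRF2 response genes were split. Of 16 tested, 6 were higher, 5 lower and 5 did not pass, with a median of 0.21. Me1, a NADPH-making malic enzyme, rose from 13.5 ± 1.07 to 36.0 ± 9.94 FPKM, and Fth1, the ferritin heavy chain, from 446 ± 52.7 to 878 ± 132 FPKM (SD, n = 4 each). Hmox1, heme oxygenase, fell from 10.4 ± 1.14 to 4.30 ± 0.491 FPKM (SD, n = 4 each, limma adjusted p = 0.000171), and G6pdx, which begins the pentose phosphate pathway, fell from 32.8 ± 2.62 to 17.7 ± 4.51 FPKM (SD, n = 4 each). Of 15 tested regulators of these genes, 5 were higher and 4 lower, with a median of 0.09. Nr1i3, the nuclear receptor CAR, was at 2.70, 3.68, 3.92 and 1.72 FPKM in WT and at 40.4, 40.4, 80.1 and 95.4 FPKM in MG53-TG (log2 difference 3.96 ± 0.32, limma adjusted p = 3.54e-05), with samples 3 and 4 again the highest. Ppara, a receptor for fatty acids, had means of 5.29 ± 1.26 FPKM in WT and 14.5 ± 4.66 FPKM in MG53-TG (SD, n = 4 each, limma adjusted p = 0.00298). Maff and Nfe2l1, a partner and a relative of NRF2, fell from 8.12 ± 1.9 to 4.12 ± 0.711 FPKM and from 28.3 ± 1.56 to 19.5 ± 0.868 FPKM (SD, n = 4 each). Of the other NRF2 genes in this list, named after their values were seen, Nfe2l2, the gene of NRF2 itself, was higher at 78.2 ± 4.11 FPKM in WT and 103 ± 12.6 FPKM in MG53-TG (SD, n = 4 each, limma adjusted p = 0.0142). Its partner Mafk was higher by 0.34 on the log2 scale (limma adjusted p = 0.0125), and its inhibitor Keap1 was lower at 21.8 ± 1.31 and 17.0 ± 1.38 FPKM (SD, n = 4 each, limma adjusted p = 0.0183). The call of Keap1 was lost under median-of-ratios scaling (adjusted p 0.299), under quantile normalization (0.146) and from start rows only (0.0528). Bach1 and Mafg, also of this list and named after their values were seen, did not pass. Their log2 differences were 0.15 (limma adjusted p = 0.227) and -0.40 (limma adjusted p = 0.298).

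**Figure D5:**
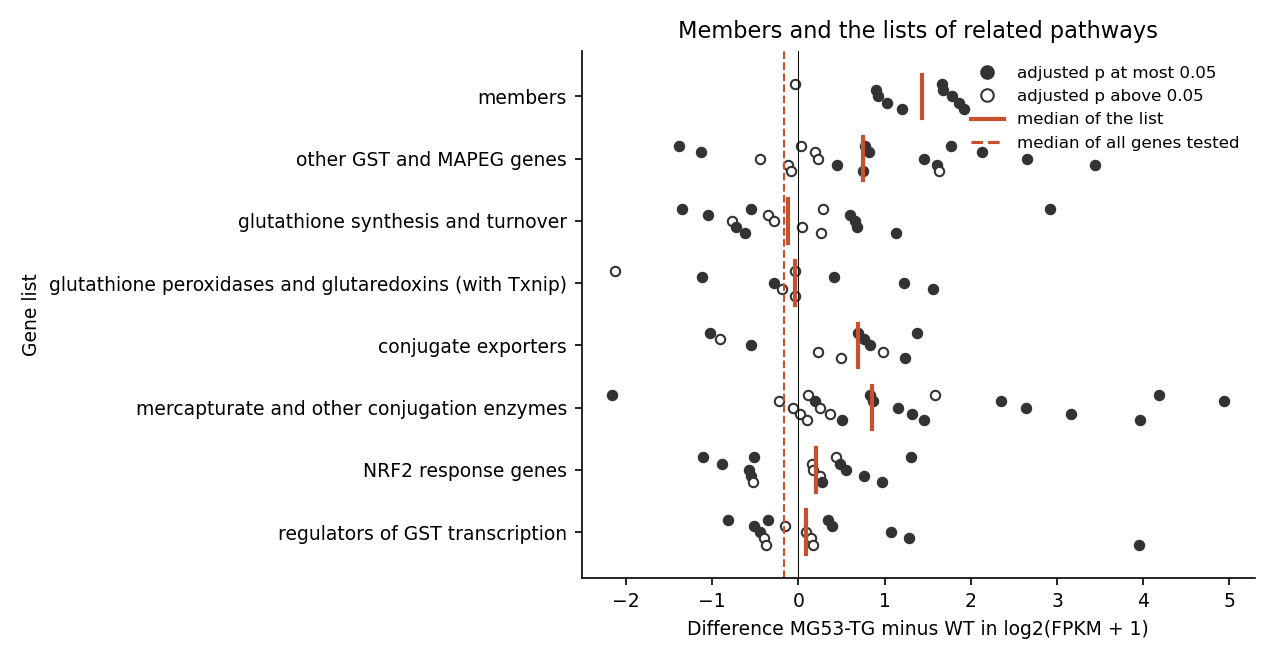
Difference between MG53-TG and WT in log2(FPKM + 1) of each tested gene, by list, filled where the adjusted p is at most 0.05, with the list median as an orange bar and the median of all genes tested, -0.17, as a dashed line. Among the lists shown, the members have the highest median, 1.44. The list of glutathione synthesis and turnover has a median of -0.12, and that of peroxidases and glutaredoxins (with Txnip) one of -0.04.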

How the data were processed

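The samples were intestinal crypt organoids, 4 WT and 4 MG53-TG by their genotype labels. The authors trimmed reads with Cutadapt 1.9.1, mapped them with HISAT2 2.0.1 and deposited FPKM values, converted with HTSeq 0.6.1. The submitters' processing notes also name DESeq2 and mm10. The tool that made the tables and its annotation were not given in the sources used here. Each deposited FPKM belongs to a transcript event (a start, an end or a skipped exon), so the depth is unknown and no counting interval is given. FPKM values go down to 1e-06, so whole reads were not recovered.

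Start and end rows were assigned to genes by the exon boundaries of GENCODE vM21 (GRCm38). Of 49773 rows, 85.3% matched the gene named in the file, 4.10% matched another gene, which was used, 4.29% matched no boundary and kept their name, and the rest (5.81% and 0.488%) were left out. A gene's value was the sum over its start rows, or over its end rows where that mean was higher (Gsta4, Gsto1). A gene with no row in a sample was set to missing if its group's median was otherwise 0.5 FPKM or more (564 genes), and else to 0. This use of coordinates departs from the identifiers first planned.

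Groups were compared on log2(FPKM + 1) with limma 3.58.1 (lmFit, eBayes with trend, R 4.3.3). The fit covered 10909 genes whose mean reached 0.5 FPKM, p-values were adjusted by Benjamini and Hochberg over all of them, and 0.05 was the threshold. Single genes also had an exact permutation test, two-sided, with 70 relabellings. Start shares and exon inclusion were tested with limma on an arcsine scale, for genes with at least 2 FPKM. On simulated data with 200 genes changed by a log2 value of 1.5, 93.5% were recovered and 10 unchanged genes were called. The simulation gave both groups normal noise with the spread of the WT samples and changed only genes above a low level. It does not show how the test performs with the spread of the MG53-TG samples or with as many changed genes as were called here. The members and gene lists were chosen with earlier results of these data known. Named genes were the 10 members, Trim72, related family genes above the filter, and in each other list the 2 largest rises and 2 largest falls among called genes whose groups did not overlap. A gene that this rule names is not reported here. Lists of Paneth, goblet, tuft and mesenchyme markers were summed too: from WT to MG53-TG they were at 1104 to 1494 and 252.2 to 444.5 FPKM, 779.4 to 891.2 and 213.4 to 557.8 FPKM, 0.6996 to 3.076 and 2.113 to 3.522 FPKM, and 1.799 to 3.238 and 1.314 to 5.579 FPKM. Coding sequences were aligned with Biopython 1.88. Proteins were not used here. The alternatives tried were other pseudocounts, filters, scalings, gene values and assignments, a replicate block, and leaving out each sample.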

Additional observations from a re-analysis of the deposited data

Results flagged for a closer look

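In groups of 4 samples, a value was looked at again where its gap to the nearest other value, as a share of the group's range, was above Dixon's critical value for 4 samples. This held for 5 of 105 groups of members and named genes (4.76%), where chance alone gives about 1 in 20 groups. None of them was a member. WT sample 4 had 0.232 FPKM of Gstm4, against 7.19 to 8.12 FPKM in the other WT samples, and 21.6 FPKM of Gstm6, against 9.57 to 11.2 FPKM. MG53-TG sample 3 had 0.0260 FPKM of Ptges and 0.349 FPKM of Gpx3, both listed at 0 in the other MG53-TG samples. WT sample 3 had 216 FPKM of Gpx1, against 191 to 193 FPKM in the other WT samples.

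A start row and an end row named for Gstp1 on the strand opposite to its exons, at chr19:4035482-4035631 and chr19:4040510-4040703, were used in no comparison. They were listed in MG53-TG sample 2 at 26.6 FPKM and in no other sample. Rows of the same kind for Gstm3 were listed in that sample at 0.477 FPKM.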

How the results depend on the processing

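Over 18 alternatives, 8 or 9 members and 3607 to 5137 genes were called. The numbers of the samples were not taken to pair them. After the group mean of each gene was subtracted, the correlations of same-numbered samples over genes were 0.0832, 0.0151, 0.0939 and -0.0528. Correlations of samples with unlike numbers are not given here to set beside them. With the replicate number as a block, 4404 genes and 8 members were called, and Ltc4s and Gpx1 lost their calls (adjusted p 0.0685 and 0.0641). Gsta1, Gsta4, Gstm1, Gstm3, Gsto1, Mgst1, Mgst2 and Mgst3 kept their direction and stayed past the threshold under every alternative that gave a value. Gstk1 lost the call with a pseudocount of 0.1 (log2 difference 2.04, adjusted p 0.0510), without the filter (1.68, 0.0676), with the replicate block (1.68, 0.0944), with end rows only (1.68, 0.0508) and without 6 of the 8 samples in turn (1.35 to 2.21 over all 8). Gstp1 turned to 0.15 under median-of-ratios scaling and to 0.20 without WT sample 3 (-0.22 to 0.20 over all 8), never past the threshold. With the deposited identifiers it was at 1.20, also not past the threshold. That figure comes only from the opposite-strand rows of MG53-TG sample 2, at 26.6 FPKM, and is not a level of the Gstp1 exons. Of genes related to the members, Gstm5 turned to 0.78 with the deposited identifiers, a call in the other direction (adjusted p 0.00279). Gstm4 turned to -0.51 without WT sample 4, to -0.24 without MG53-TG sample 2 and to -0.52 without MG53-TG sample 4 (-0.52 to 0.85 over all 8). Gstp2 turned to 0.11 under median-of-ratios scaling, to 0.064 with end rows only and to 0.19 without WT sample 3. Gstt2 turned to -0.20 without WT sample 4 and to -0.10 without MG53-TG sample 2. Gstz1 turned to 0.058 under median-of-ratios scaling and to 0.0053 under quantile normalization. The related family genes called numbered 5 with end rows only, against 12 as reported. Of those 12, Gm3776, Gsta2, Gsta3, Gstp3, Ltc4s and Ptges had no value from end rows, and Ptges2 lost its call (adjusted p 0.0939). The peroxidases and glutaredoxins called numbered 3 with the replicate block and 3 to 4 with one sample left out, against 5 as reported. The cause of the other changes was not tested. Median-of-ratios scaling moved the median of all genes by 0.16 and quantile normalization by 0.11, and the share of calls that were higher was 49.9% and 44.4%, against 34.8%. The assignment by deposited identifiers and the leave-one-out fits of exon shares were added after seeing the data. Among the members, no value could be had for Gsta1 with the deposited identifiers, for Gsta4 from start rows or for Gstp1 from end rows. The depth is unknown, and 4 samples a group limit the precision.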
